A study of Mus musculus with 4 samples.

Results

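Some small RNAs on miRNA panels do not come from the usual route, in which the nuclear RNase III enzyme Drosha cuts a hairpin out of a primary transcript. The entries described here are 21 of the 566 mouse miRNA probes of a NanoString nCounter panel, chosen by name, and fall into 2 classes. The class of tRNA- and rRNA-derived entries holds 16 probes (mmu-miR-720, here miR-720, the probe shared by miR-1937a and miR-1937b, miR-1937c, miR-1959 and 12 probes between miR-2132 and miR-2146). The class of miRNAs that bypass Drosha holds 5 probes (miR-320, miR-484, miR-877, miR-1224 and miR-702). Their levels were measured in wild-type (WT) R1 mouse embryonic stem cells (ESCs) and in R1 ESCs in which all 3 DNA methyltransferase genes, Dnmt1, Dnmt3a and Dnmt3b, are knocked out (TKO), each genotype in 2 biological replicates, so that there were 4 samples. Both genotypes were grown on gelatin in serum with leukemia inhibitory factor, and the labels state 4 days of differentiation before RNA isolation for every sample. The sources used here do not settle how these statements go together, and the cells are called ESCs as in the labels. The sources do not say how many clones the TKO line stands for, and the panel holds no probe for the Dnmt transcripts, so the knockout itself was not checked here.

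tRNAs and rRNAs are cut into short fragments by other nucleases, and several such fragments were entered in miRNA registries before their origin was recognised. miR-720 is the best known of them and matches a threonine tRNA. A mirtron is a short intron that folds into a hairpin once it is spliced and debranched, so the spliceosome takes the place of Drosha, and Dicer then cuts it as usual; miR-877, miR-1224 and miR-702 are known as mirtrons. miR-320 and miR-484 are known from ESCs as hairpins transcribed directly with a capped 5′ end, which also need Dicer and not Drosha. The study asked whether DNA methylation acts on the Drosha step, and entries made without that step are of interest there.

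Of the 21 probes, 7 could be matched by name to mature sequences in RefSeq (GRCm38.p6), 3 of the tRNA- and rRNA-derived class and 4 of the Drosha-bypassing class. The sequences are shown 5′ to 3′ so that their seeds and composition can be compared, with the seed (bases 2 to 8) in capitals. The probe names of miR-1224, miR-877 and miR-702 give no arm, so both arms are listed.
miR-484: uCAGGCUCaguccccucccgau
miR-1224-5p: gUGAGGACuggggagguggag
miR-1224-3p: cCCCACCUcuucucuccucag
miR-877-5p: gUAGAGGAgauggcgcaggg
miR-877-3p: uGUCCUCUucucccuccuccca
miR-702-5p: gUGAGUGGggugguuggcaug
miR-702-3p: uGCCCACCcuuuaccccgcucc
miR-2136: cUGGGUGUugacugagaugug
miR-2137: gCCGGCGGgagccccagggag
miR-2139: aGCUGCGCugcuccugguaacugc
No seed was shared between these entries. The seed of miR-702-5p was shared with 1 other mouse miRNA in the table, miR-3102-5p, and the others were shared with none. The GC content of miR-2137 was 85.7%, against a median of 52.2% over the 1679 mature mouse names in the table.

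The hairpins of miR-1224 and miR-877 start with GU and end with AG, the letters that mark the ends of an intron, here in capitals.
Mir1224: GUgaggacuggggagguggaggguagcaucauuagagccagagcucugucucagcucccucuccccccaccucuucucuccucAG
Mir877: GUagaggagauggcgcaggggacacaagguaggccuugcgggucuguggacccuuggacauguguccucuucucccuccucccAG
Of the 1005 mouse hairpins in the table, 30 (2.99%) had both letter pairs. The listed hairpins of miR-702, miR-484, miR-2136, miR-2137 and miR-2139 did not have both. That of miR-702 starts before miR-702-5p, which itself begins with GU, so the ends of this listed hairpin need not be those of an intron. In GRCm38.p6, Mir1224 lies on the plus strand at chr16:20604452-20604536 within the span of Vwa5b2, and Mir877 lies on the minus strand at chr17:35960730-35960814 within Abcf1. Mir702 is at chr5:136991433-136991541 within Plod3. Mir484, at chr16:14159626-14159692, lies within no other gene, 347 bases from Marf1 and 3582 bases from Nde1. Mir320, at chr14:70443510-70443591, also lies outside other genes and is 38 bases from Polr3d. Of the tRNA- and rRNA-derived class, Mir2137 lies within Zfp185 on chromosome X and Mir2139 within Klhdc7a on chromosome 4. Mir2136 lies on chromosome 9 within no other gene, and the nearest span, that of a tRNA gene, is 17374 bases away. RefSeq thus gives these 3 a miRNA gene that overlaps no tRNA or rRNA gene of its table, so for them the class rests on the name alone. The other probes of this class had no match by name, so their origin was not checked here and their class rests on the name too. Gene spans were used without exons, so introns and exons are not told apart.

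The deposited values were turned back into normalized counts. The recovered whole counts summed to between 511661 and 613666 per sample, and intervals from them cover counting error only. A probe was called above background where its mean over the 4 samples passed 69.2 normalized counts, the mean plus 2 SD of the 33 viral miRNA probes. Of the markers fixed for ESCs, 8 of the 11 miR-290 to miR-295 probes on the panel were above background, and their summed level was 332117 to 338120 normalized counts for WT, 271498 to 295039 for TKO samples. The marker of liver and the 7 of muscle were not above background. Of the blood markers, 2 of 4 were above background, with summed levels of 890 to 950.3 in WT and 1283 to 1428 in TKO cells, and both neuronal markers were, with 545 to 621 in WT and 211 to 223.35 in TKO cells. The part of these differences in the values below was not tested.

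Of the 21 entries, 18 were above background (85.7%), against 238 of all 566 mouse probes (42.0%). All but miR-2136 of the tRNA- and rRNA-derived class were above it, and of the Drosha-bypassing class miR-1224, miR-484 and miR-320 were. The signal of a probe also depends on how well it captures its RNA, so an order of signals is not an order of RNA levels.

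**Figure D1:**
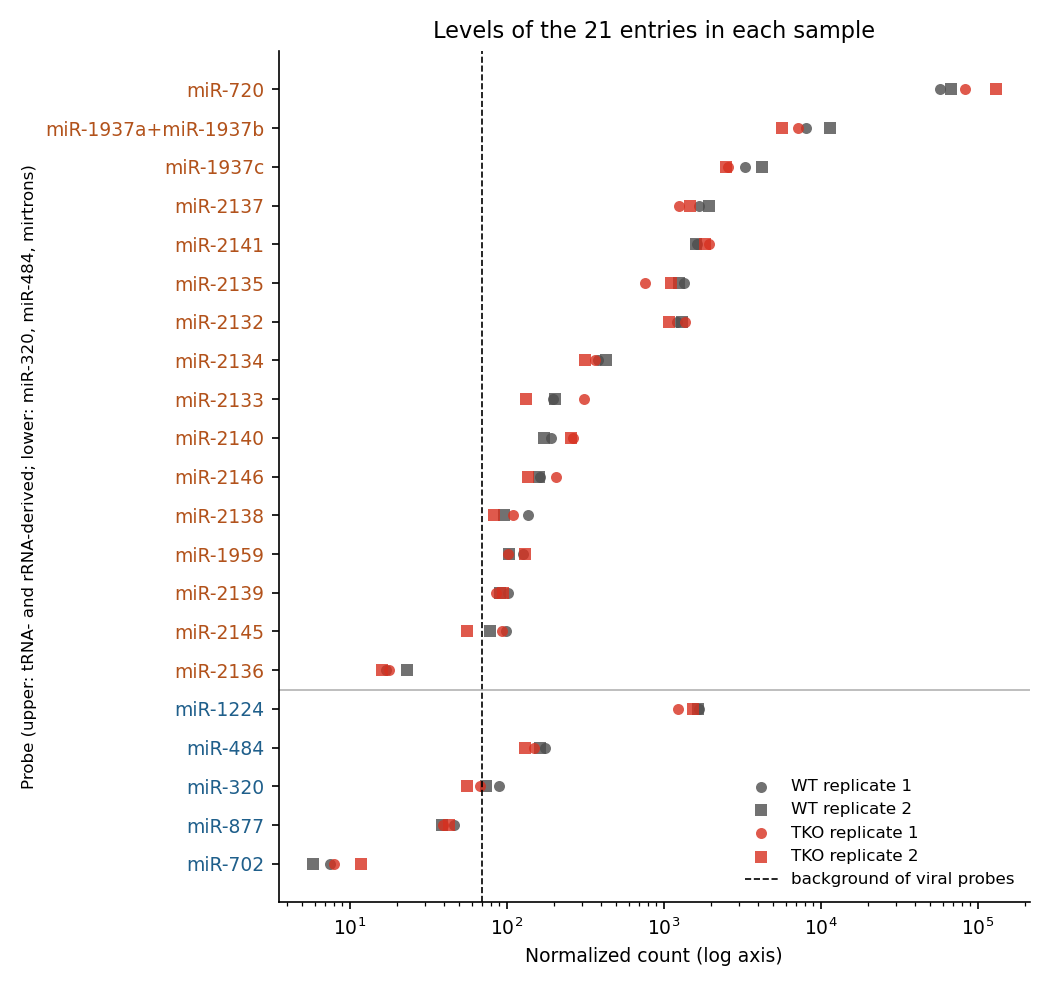
Normalized counts of the 21 entries on a log axis, with 1 point for each of the 4 samples; circles are replicate 1, squares replicate 2, and the dashed line is the background of the viral probes (69.2). miR-720 stands above all others in every sample, and miR-2136, miR-877 and miR-702 lie below the background line in every sample.

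miR-720 gave the highest signal of either class. WT replicates 1 and 2 held 57232 and 67909 normalized counts, TKO replicates 1 and 2 held 83731 and 130237. Both TKO samples lay above both WT samples, and the TKO replicates stood further apart than the WT replicates. It ranked 3 of the 566 mouse probes in WT cells, after the stem cell miRNAs miR-294 and miR-295, and 1 in TKO cells. The mean was 62571 ± 7550 (SD, n = 2) in WT and 106984 ± 32885 (SD, n = 2) in TKO cells, a 1.71-fold ratio. The difference, TKO minus WT in log2(normalized count + 1), was 0.74 (SE 0.27, 95% interval 0.023 to 1.46), which did not pass the adjusted threshold (limma, adjusted p = 0.204). Its size rests on TKO replicate 2, as it was 0.43 without TKO replicate 2 and 1.06 without TKO replicate 1.

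miR-720 alone took 9.72% and 11.4% of the summed mouse signal in the WT samples, against 16.6% and 22.6% in the TKO samples. The mean share was 10.6% ± 1.20 in WT and 19.6% ± 4.26 in TKO cells (SD, n = 2), a difference of 9.03 percentage points, which was 6.02 without TKO replicate 2. The summed level of the 545 probes outside the 21 entries was 506432 ± 6193 normalized counts for WT, 416045 ± 18570 for TKO samples (SD, n = 2), and a share is higher also where the rest of the signal is lower.

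The miR-1937 entries gave the next highest signals of the 21, and their differences lay on the other side of 0 from miR-720. The probe shared by miR-1937a and miR-1937b read 8126 and 11507 normalized counts for WT, 7141 and 5649 for TKO samples. miR-1937c read 3283 and 4225 for WT, 2585 and 2488 for TKO samples. In both, each TKO sample lay below each WT sample. The log2 difference was -0.61 (SE 0.25, 95% interval -1.27 to 0.056, limma adjusted p = 0.232) for the shared probe, and -0.36 without WT replicate 2. For miR-1937c it was -0.55 (SE 0.19, 95% interval -1.06 to -0.051, limma adjusted p = 0.184). miR-1937c was called when the spread was modelled with the level (limma trend, adjusted p = 0.0338) and with voom on the recovered counts (adjusted p = 0.0287). It was not called in the other alternatives, where the limma adjusted p reached 0.463 with samples divided by their sum without miR-720 (difference -0.27).

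The ratio of 2 probes within a sample does not depend on how samples were scaled. The log2 ratio of miR-720 to the miR-1937a and miR-1937b probe was 2.82 and 2.56 for WT, 3.55 and 4.53 for TKO samples. That of miR-720 to miR-1937c was 4.12 and 4.01 for WT, 5.02 and 5.71 for TKO samples. Both ratios were higher in each TKO sample than in each WT sample, by 1.35 and 1.30 on average. This lack of overlap follows from the values above, where miR-720 was higher and both miR-1937 probes lower in each TKO sample. The ratios thus restate those differences free of scaling and add no separate result. The ratio of the miR-1937 probes to each other was 1.31 and 1.45 for WT, 1.47 and 1.18 for TKO samples and overlapped between the genotypes. With 2 samples of each genotype the smallest two-sided p of an exact permutation test is 0.333, and these ratios were not tested.

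**Figure D2:**
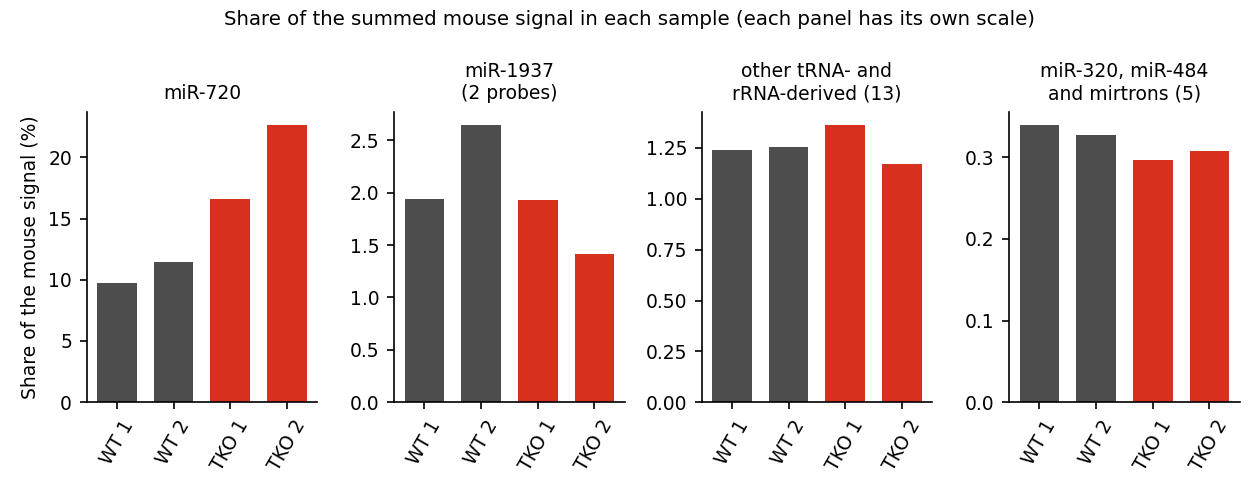
Share of the summed mouse signal in percent for miR-720, the 2 miR-1937 probes, the 13 other tRNA- and rRNA-derived probes and the 5 miR-320, miR-484 and mirtron probes, with a bar for each sample (grey WT, red TKO) and a separate scale in each panel. The miR-720 bars stand at 9.72% and 11.4% for WT, 16.6% and 22.6% for TKO samples, and the 13 other probes lie between 1.17% and 1.36% in all samples.

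The 12 probes between miR-2132 and miR-2146 did not lie on one side of 0. Of these, 4 had a higher and 8 a lower mean in TKO cells, with log2 differences between -0.50 and 0.52 and a median of -0.15. Samples of the genotypes did not overlap for 5 of the 12, 2 higher and 3 lower in TKO cells, where 53.4% of all mouse probes did not overlap, 17.3% higher and 36% lower.

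miR-2140 was the entry nearest to a call. WT replicates 1 and 2 held 192 and 172 normalized counts, TKO replicates 1 and 2 held 263 and 257. The TKO replicates were 0.031 apart on the log2 scale and both lie above the WT samples. The difference was 0.52 (SE 0.15, 95% interval 0.11 to 0.92), with a limma adjusted p of 0.137 over all 566 probes. It was called with limma trend (adjusted p = 0.0408), with voom on the recovered counts (adjusted p = 0.0449) and when the 238 probes above background alone were tested (adjusted p = 0.0303), and in no other alternative, where the limma adjusted p reached 0.350 (without WT replicate 2). miR-2141 was higher in both TKO samples as well, with 1631 and 1603 normalized counts for WT, 1947 and 1826 for TKO samples, and a difference of 0.22 that was not called (limma adjusted p = 0.434).

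miR-2137, the GC-rich entry shown above, was lower in both TKO samples. It read 1691 and 1945 normalized counts for WT, 1252 and 1483 for TKO samples, a log2 difference of -0.41 (SE 0.18, limma adjusted p = 0.253). miR-2135 read 1351 and 1249 for WT, 756 and 1113 for TKO samples, a difference of -0.50 (SE 0.24, limma adjusted p = 0.292) that was -0.22 without TKO replicate 1 and -0.78 without TKO replicate 2. miR-2134 read 382 and 429 for WT, 368 and 316 for TKO samples, a difference of -0.25 (limma adjusted p = 0.452) that was -0.14 without TKO replicate 2 and -0.16 without WT replicate 2. For none of the 3 was the difference larger than the spread allows at the adjusted threshold.

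Within samples, miR-2140 and miR-2135 parted by more than either difference alone. The log2 ratio of miR-2140 to miR-2135 was -2.82 and -2.86 for WT, -1.52 and -2.11 for TKO samples, a mean difference of 1.02 with no overlap. This pair was chosen after its values were seen, and its lack of overlap follows from the values of each probe. Its ratio is given as a description.

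The other members of the range overlapped between the genotypes. miR-2133 read 198 and 202 normalized counts for WT, 311 and 132.9 for TKO samples. The counting intervals of these TKO values were 278 to 348 and 111 to 158 (exact Poisson, 95%, counting error only). miR-2146 (163 and 161 for WT, 205.6 and 137 for TKO samples) and miR-2145 (98.5 and 78.7 for WT, 92.9 and 55.7 for TKO samples) also had TKO replicate 2 below TKO replicate 1. Without TKO replicate 1 the differences of miR-2133 and miR-2146 turned from 0.025 to -0.59 and from 0.052 to -0.24.

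Values of the remaining members were lower or close to equal in the genotypes. miR-2132 read 1209 and 1311 normalized counts for WT, 1360 and 1088 for TKO samples, a difference of -0.050. miR-2138 (136 and 96.2 for WT, 110 and 83.6 for TKO samples) and miR-2139 (102 and 90.3 for WT, 86.0 and 95.4 for TKO samples) differed by -0.25 and -0.081. miR-2136 was below background throughout, with 17.1 and 23.3 for WT, 17.8 and 16.1 for TKO samples. miR-1959, outside this range, read 126 and 104 for WT, 103 and 131 for TKO samples, a difference of 0.017 with a 95% interval of -0.53 to 0.57.

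**Figure D3:**
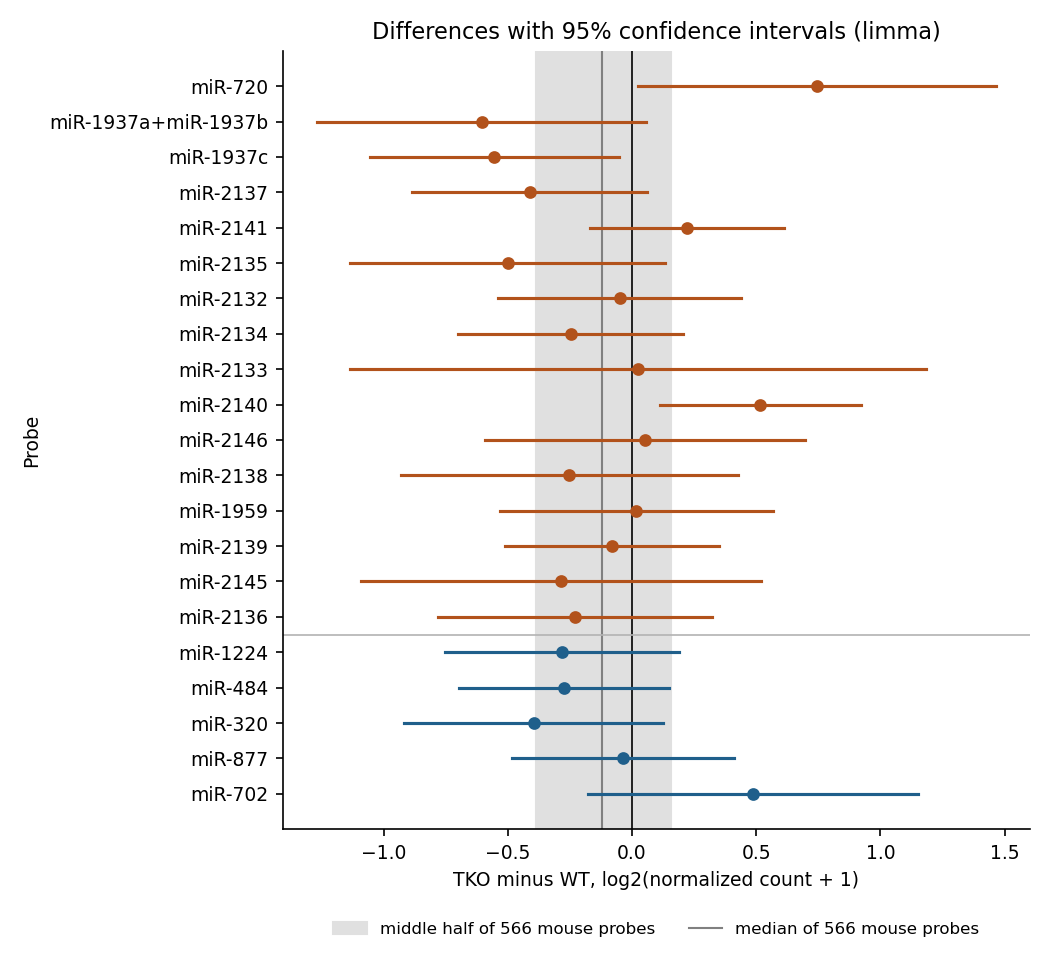
Difference of each of the 21 entries, TKO minus WT in log2(normalized count + 1), with its 95% confidence interval from limma (n = 2 samples of each genotype); brown marks the tRNA- and rRNA-derived class, blue the miR-320, miR-484 and mirtron class, and the grey band the middle of the 566 mouse probes from the lower to the upper quartile. The intervals of miR-720 and miR-2140 lie above 0 and that of miR-1937c below 0, and all others cross 0.

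In the Drosha-bypassing class, the TKO mean was the lower for 4 of 5 probes, as for 61.7% of all mouse probes, and none was called, where 8.48% of all were. miR-484 read 177 and 163 normalized counts for WT, 149 and 132 for TKO samples. Both TKO samples lay below both WT samples, and the log2 difference was -0.27 (SE 0.16, 95% interval -0.70 to 0.15, limma adjusted p = 0.372). miR-320 read 89.9 and 73.8 for WT, 68.2 and 55.7 for TKO samples, a difference of -0.40 (SE 0.20, 95% interval -0.92 to 0.13, limma adjusted p = 0.312) that was -0.25 without TKO replicate 2 and -0.26 without WT replicate 1. Neither TKO value of miR-320 reached the background (69.2), and the size of this difference is not resolved.

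The mirtron probes differed widely in signal. miR-1224 gave the highest of the class, with 1677 and 1664 normalized counts for WT, 1233 and 1532 for TKO samples. Its WT replicates were close and its TKO replicates were both lower, and the difference was -0.28 (SE 0.18, 95% interval -0.75 to 0.19, limma adjusted p = 0.410). It was -0.12 without TKO replicate 1 and -0.44 without TKO replicate 2. miR-877 read 46.0 and 38.9 for WT, 39.5 and 42.9 for TKO samples, overlapping and below background, with a difference of -0.038. miR-702 ranked 559 of 566 in WT cells, with 7.49 and 5.83 for WT, 7.91 and 11.8 for TKO samples. Its recovered counts were 7, 6, 8 and 11, whose counting intervals overlap, and its difference of 0.49 is below what the panel resolves (limma adjusted p = 0.321).

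**Figure D4:**
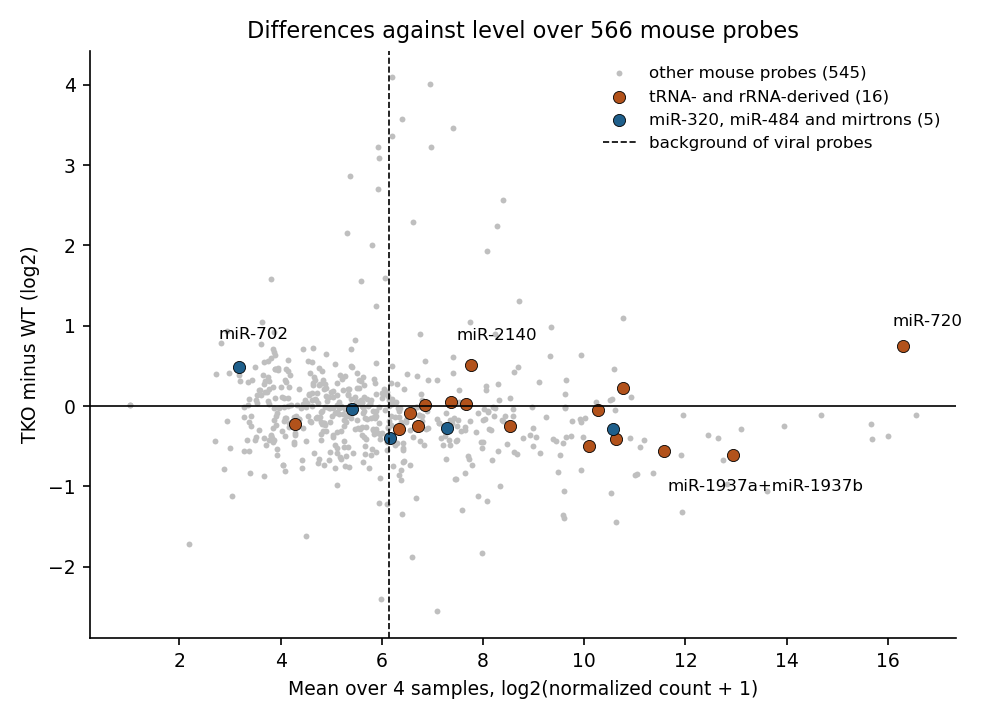
Difference, TKO minus WT, against the mean level of each of the 566 mouse probes, both on the scale of log2(normalized count + 1); grey points are the 545 other mouse probes, brown the tRNA- and rRNA-derived class, blue the miR-320, miR-484 and mirtron class, and the dashed line the background. The 21 entries lie between -0.61 and 0.74, inside the spread of the other probes, which reaches from -2.55 to 4.09.

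None of the 21 entries was called by limma after adjustment over all mouse probes, where 8.48% of the 566 probes were called, 4.24% higher and 4.24% lower in TKO cells. At an unadjusted p under 0.05, 3 of the 21 passed (miR-720, miR-2140 and miR-1937c), against 23.5% of all probes; of these only miR-1937c was lower in TKO cells, against 15.4% of all. Of the alternatives, limma trend and voom each called 2 of the 21, beside 84 and 85 of the 566 probes, and the test of probes above background called 1 of 18, beside 74 of 238. Samples of the genotypes did not overlap for 4 entries higher in TKO cells, against 17.3% of all probes, and for 8 entries lower in TKO cells, against 36% of all probes, or 12 in either direction against 53.4%. These overlap shares lie near those of all 566 probes, but 18 of the 21 entries were above background. Of the 238 probes above background, the same limma fit called 19 higher and 22 lower in TKO cells. At an unadjusted limma p under 0.05, 28 of the 238 were higher and 58 lower. Samples of the genotypes overlapped for 69 of the 238, and for 9 of the 21 entries. The entries passed less often and overlapped more often than these 238, but the sets are not alike. The entries include miR-2136, miR-877 and miR-702, which were below background, and samples overlapped for miR-2136 and miR-877. The contrast rests on few entries and was not tested. The 95% interval of the difference lay within a log2 of 1 in either direction for 14 of the 21 entries, 10 of 16 in the tRNA- and rRNA-derived class and 4 of 5 in the other, against 58.3% of all probes and 63.4% of those above background.

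The median difference was -0.15 in the tRNA- and rRNA-derived class, with 6 higher and 10 lower, and -0.27 in the Drosha-bypassing class, with 1 higher and 4 lower. Over all 566 mouse probes it was -0.12, with 61.7% lower, and over the 238 probes above background -0.20, with 71.8% lower. The classes thus lay 0.032 and 0.15 below the median of all probes. With each sample divided by its sum without miR-720, the medians were 0.13 and 0.014 and that of all probes 0.16, so the sign of the class medians follows the scaling. The Drosha-bypassing median lay below that of all probes in every alternative run, by 0.029 without TKO replicate 2, 0.066 without TKO replicate 1 and 0.072 without WT replicate 2, and was -0.12 without TKO replicate 1. The tRNA- and rRNA-derived median did so under each scaling, but lay above it by 0.12 among the probes above background, by 0.072 without WT replicate 2 and by 0.056 without TKO replicate 2. The summed level of the Drosha-bypassing class was 1971 ± 36.4 normalized counts in WT against 1636 ± 195 for TKO (mean ± SD, n = 2). The ratio of these sums was 0.830, and miR-1224 supplied 1670 and 1383 of them. For the 545 other probes the ratio was 0.822. Their mean WT sum of 506432 came largely from the miR-290 to miR-295 probes (332117 to 338120 in WT samples). Neither ratio thus describes a typical probe of its set.

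**Figure D5:**
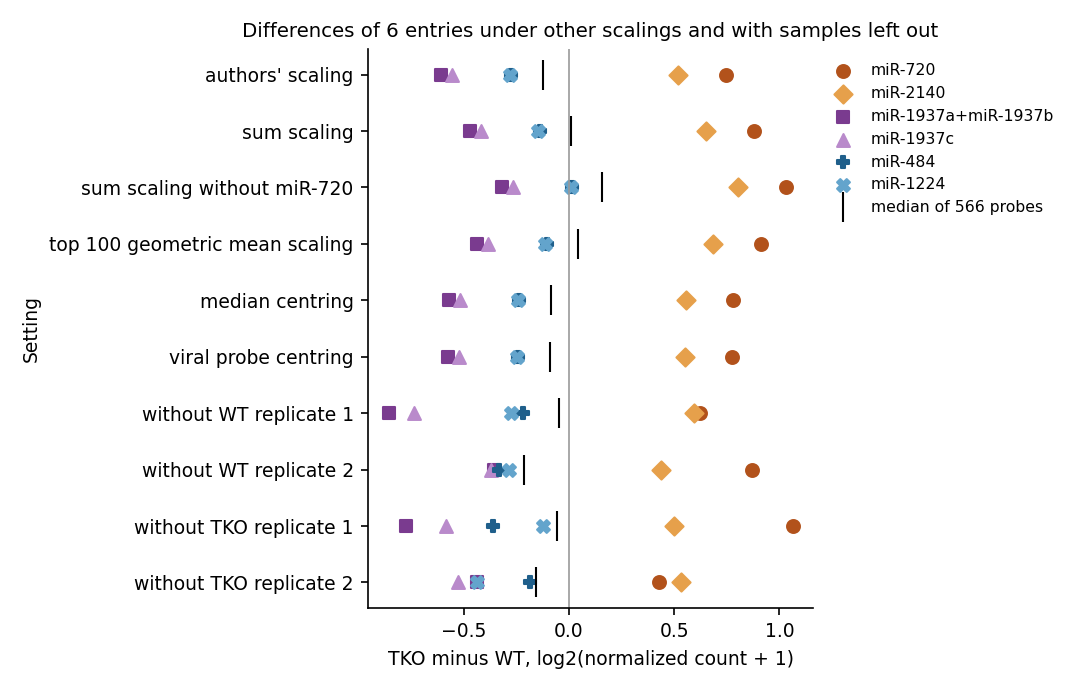
Differences of 6 entries, TKO minus WT on the log2 scale, under the authors' scaling, other scalings and with each sample left out; the black bar is the median of the 566 mouse probes in each setting. miR-720 and miR-2140 stay above 0 and both miR-1937 probes below 0 in all settings shown, and miR-484 and miR-1224 cross 0 where samples are divided by their sum without miR-720 (0.014 and 0.0079).

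The median gap between the WT replicates of the 21 entries was 0.20 on the log2 scale, against 0.20 over all mouse probes and 0.12 over those above background. Between the TKO replicates it was 0.31, against 0.23 over all and 0.19 over those above background. In TKO cells 6 of the 21 gaps were above 0.5 (28.6%), against 19.1% of all probes and 11.3% of those above background.

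The study lists mouse precursors by the methylation of their borders. None of the 16 tRNA- and rRNA-derived probes was found in that list. Of the Drosha-bypassing class, miR-1224 and miR-877 are listed as downstream and miR-702 as upstream, which the study counts as methylated, and miR-320 and miR-484 are listed as flat, which it counts as unmethylated. The differences of the former were -0.28, -0.038 and 0.49, and those of the latter were -0.40 and -0.27. Only miR-1224, miR-320 and miR-484 of these were above background, and all 3 had lower values in both TKO samples. The same held for 36% of all 566 mouse probes. Of the 238 probes above background, samples overlapped for 69 and lay higher in TKO cells without overlap for 45. The rest of the 238 were lower in both TKO samples, as these 3 were, so the pattern is not particular to this class.

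Another 8 probes for miRNAs made outside the usual route were set beside these. They are miR-712 and miR-714, from a spacer of the ribosomal precursor, both arms of miR-1839, from a small nucleolar RNA, the mirtrons miR-1981 and miR-1982, the short hairpin miR-668, and miR-451, which needs Drosha but not Dicer. The TKO mean on the log2 scale was higher for 1 and lower for 7, with a median of -0.19, and none was called. Of all 566 mouse probes 61.7% were lower, with a median of -0.12, and 8.48% were called. miR-1839-5p read 104 and 100.0 normalized counts for WT, 74.1 and 65.4 for TKO samples, a log2 difference of -0.54 (SE 0.16, limma adjusted p = 0.135). The mirtron miR-1981 read 158 and 141.8 for WT, 130.4 and 128 for TKO samples, a difference of -0.21 (SE 0.15, limma adjusted p = 0.463). miR-714 read 180 and 173 for WT, 139 and 175 for TKO samples, a difference of -0.18 (limma adjusted p = 0.625). The other 5 probes were below background. The list is not complete and names no tRNA fragment, so its range does not stand for all such probes of the panel.

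The probes above background whose pattern over the 4 samples was most like that of miR-720 were miR-322, miR-142-3p and miR-193. Likeness was the root mean square distance between the log2 deviations of 2 probes from their own means over 4 samples, and was 0.18, 0.22 and 0.24. miR-322 read 81.3 and 74.8 normalized counts for WT, 127 and 168 for TKO samples. miR-142-3p read 807 and 762 for WT, 1159 and 1278 for TKO samples, and miR-193 read 74.9 and 79.7 for WT, 95.9 and 109 for TKO samples. All 3 were higher in both TKO samples, which follows from their selection by likeness to miR-720. None of the 3 was called (limma adjusted p = 0.0772, 0.0944 and 0.225), where 8.48% of all mouse probes were.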

How the data were processed

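miRNA levels were measured with the NanoString nCounter miRNA assay in total RNA of 4 samples, 2 of each genotype, grouped by their titles. The authors normalized the counts with nSolver and deposited log2 values; the version, background step and reference probes are not given in the sources used here. Values were turned to normalized counts, which are whole multiples of 1 step per sample (100% within 0.05). A pseudocount of 1 was added and log2 taken. All 566 mouse probes were fitted with limma 3.58.1 (lmFit, eBayes; R 4.3.3) on genotype, with Benjamini-Hochberg adjustment and a threshold of 0.05; the 33 viral probes gave the background. P-values measure the spread between these samples. Every probe of the naming rule is described, and the 3 probes most like miR-720 were taken by distance. The members, lists and rules were chosen with earlier results of these data known. Alternatives covered scaling, pseudocount, background, low values, replicates and test, and the fit was tested on simulated data. Sequences and positions are from RefSeq (GRCm38.p6). Tables used pandas 2.3.3, numpy 2.4.6 and scipy 1.17.1 in Python 3.11.15, figures matplotlib 3.10.9.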

Additional observations from a re-analysis of the deposited data

How the results depend on the processing

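With 2 samples of each genotype, only large differences pass. Over up to 16 alternatives, the difference of 9 of the 21 entries did not change sign (that of miR-702 was 0 at the floor of the subtracted values), among them miR-720 (0.43 to 1.06), miR-2140 (0.44 to 0.80), the miR-1937a and miR-1937b probe (-0.86 to -0.32) and miR-1937c (-0.74 to -0.27). Limma trend, a block for replicate number and the test of probes above background do not alter a difference, so its sign could not change there. Entries called numbered 1 among probes above background and 2 with limma trend or voom. The panel's 48 calls became 74 among probes above background, 84 with limma trend, 85 with voom and 0 to 14 with a sample left out (14 without WT replicate 1, 9 without WT replicate 2); without TKO replicate 1 or TKO replicate 2, 0 were called by limma, with 114 and 101 at an unadjusted p under 0.05.

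Same-numbered samples are not stated to share a batch, and their deviations correlated at -0.094 over 566 probes. With the replicate block, 30 probes and none of the entries were called; with crossed pairing, chosen after seeing the data because the correlation was -0.24 over probes above background, 64 and none.

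The calls split as 24 higher and 24 lower, but as 27 and 17 with sum scaling, 29 and 9 with the sum without miR-720 and 25 and 14 with the top 100 probes. Division by the sum without miR-720 gave class medians of 0.13 (tRNA- and rRNA-derived) and 0.014 (Drosha-bypassing), and turned miR-2132 (0.24), miR-2134 (0.041), miR-2136 (0.046), miR-2138 (0.033), miR-2139 (0.21), miR-1224 (0.0079), miR-484 (0.014) and miR-877 (0.24). Sum scaling turned miR-2132 (0.085), miR-2139 (0.052) and miR-877 (0.094). Scaling to the geometric mean of the top 100 probes gave a tRNA- and rRNA-derived median of 0.0085 and turned miR-2132 (0.12), miR-2139 (0.086) and miR-877 (0.13). Subtracting the viral mean turned miR-877 (0.17). With a sample left out, differences ranged from -0.17 to 0.0038 for miR-2139, -0.16 to 0.082 for miR-877, -0.16 to 0.19 for miR-1959, -0.21 to 0.11 for miR-2132, -0.59 to 0.64 for miR-2133, -0.24 to 0.34 for miR-2146 and -0.65 to 0.077 for miR-2145. The cause was not tested beyond the settings named.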
